A study of Mus musculus with 6 samples.

Results

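Transcripts of 9 transcription factor genes that shape effector regulatory T cells (Tregs) and helper T cell lineages were read across 6 Treg libraries. The genes are Irf4, Batf, Prdm1, Maf, Tbx21, Stat4, Rora, Stat3 and Bcl6. They were chosen by name, and all 9 had a row among the 23725 genes of the table. The cells came from lymph nodes of C57Bl/6 mice that had all been immunised with myelin oligodendrocyte glycoprotein (MOG), a surface protein of the myelin sheath. There were 3 libraries from wild-type (WT) mice, in which MOG is a self protein, and 3 from mice in which the Mog gene was knocked out in the whole animal (MOG KO). No age, sex or sorting gate is given in the labels. Each library was made from the RNA of 500 cells by 15 cycles of PCR, and the replicate numbers are not said to be separate mice, so the spread between libraries may be partly technical.

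These factors work in a hierarchy. T cell receptor signals induce IRF4 and BATF, which bind DNA together at composite AP-1 and IRF sites and open the effector programme of Tregs, in which BLIMP-1 (the product of Prdm1) and c-Maf control interleukin 10 and other suppressive genes. A Treg can also take up the master factor of the helper cell it restrains: T-bet (Tbx21) with STAT4 for type 1 responses, RORa with STAT3 for type 17 responses, and BCL6 for the follicular cells of germinal centres. BLIMP-1 and BCL6 are known to repress each other.

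Library totals ran from 2717969 to 4472549 gene counts, so 1 count was worth 0.224 to 0.368 RPM (counts rescaled to a common library total). In each library a count of 0 allows up to 3 counts, or 0.671 to 1.1 RPM, a limit that covers counting error only. Mog had 1 count over the 6 libraries and does not check the genotype labels. The summed RPM of 6 T cell markers was 1349 to 2278 in WT and 2030 to 2186 in MOG KO, and that of 4 Treg markers 2084 to 3141 and 2108 to 2974. WT replicate 3 stood apart: Foxp3 was 8.22 RPM and Cd3g 1.42 RPM there, against at least 326 and 177 RPM in the other 5 libraries, and 2701 genes were at 10 RPM or more against 3265 to 4440. Fold changes of the genes tested are therefore also given without it.

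Markers of other cells that use these factors were mostly near 0. Both CD8 T cell markers and all 4 natural killer cell markers had 0 counts in every library. Of 6 B cell markers Cd79a and Pax5 had 0 counts throughout, and the summed level was 2.58 to 207 RPM in the WT libraries and 0 to 130 RPM in MOG KO. Of 6 plasma cell markers in the table Sdc1, Mzb1 and Tnfrsf17 had 0 counts throughout, and the sum, nearly all Xbp1, was 1.98 to 358 RPM in the WT libraries and 0.462 to 293 RPM in MOG KO. Of 8 myeloid and dendritic cell markers Siglech had 0 counts throughout, and the sum was 25.4 to 180 RPM in the WT libraries and 15.9 to 311 RPM in MOG KO. Red cell genes summed to 69.7 to 151 RPM in the WT libraries and 20.6 to 67.5 RPM in MOG KO.

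**Figure D1:**
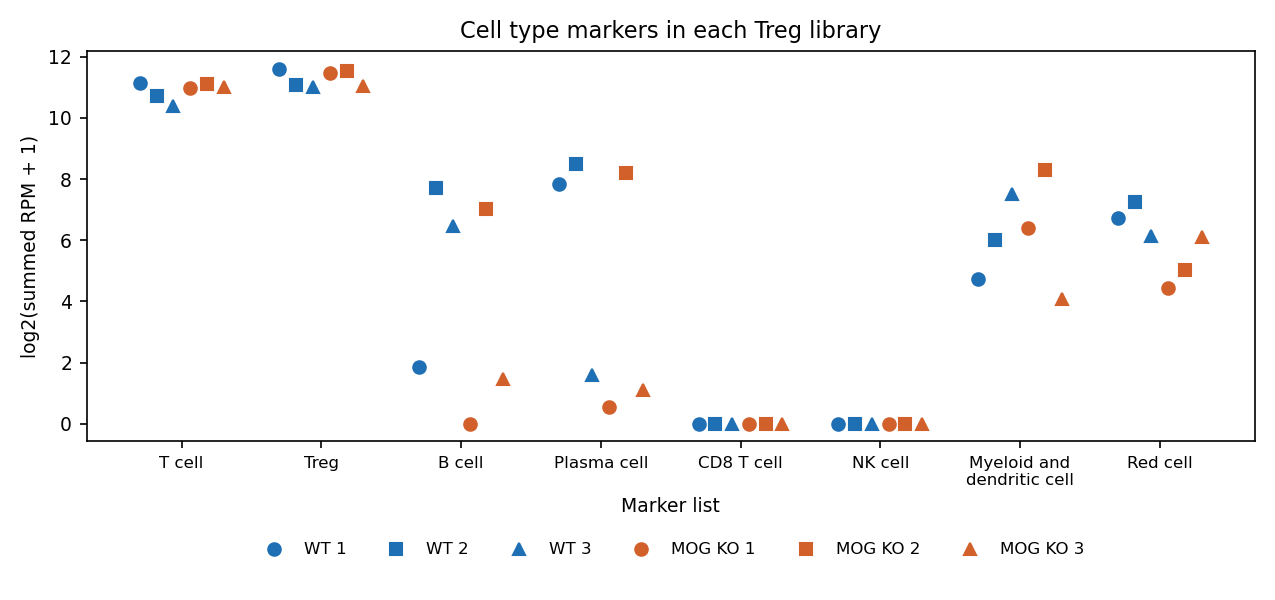
Summed reads of 8 marker lists in each library, as log2(summed RPM + 1), with WT in blue and MOG KO in orange and 1 symbol per replicate. The sums of T cell and Treg markers are high in all 6 libraries, although Foxp3 (8.22 RPM) and Cd3g (1.42 RPM) were low in WT replicate 3. CD8 T cell and natural killer cell markers are at 0, and the B and plasma cell lists differ between libraries of the same genotype.

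The start regions of the genes were searched for letters that factors of these families bind. RefSeq start windows (build GRCm38.p6) matched 8 of the 9 genes, all but Maf, and gave 10 windows, of which the 250 bases before the start were searched on both strands. The AP-1 motif was searched loosely as TGANTCA, with any base in the middle, and was in 6.75% of all 32851 windows. The STAT motif TTCNNNGAA was in 7.02%, the interferon response motif (GAAA, any 2 bases, GAAA), which IRF and BLIMP-1 proteins bind, in 2.98%, and the T-box motif AGGTGTGA in 1.12%. Of the 10 windows 4 held a match, among them both windows of Bcl6. The share of all windows with any of the 4 motifs is not given, so whether this count is high cannot be said. The 3 shown, with matches in capitals, hold an AP-1, an interferon response and a STAT match. They belong to genes at 10 RPM or more in 1, 3 and 0 libraries.
Prdm1, chr10:44458749-44458998, minus strand: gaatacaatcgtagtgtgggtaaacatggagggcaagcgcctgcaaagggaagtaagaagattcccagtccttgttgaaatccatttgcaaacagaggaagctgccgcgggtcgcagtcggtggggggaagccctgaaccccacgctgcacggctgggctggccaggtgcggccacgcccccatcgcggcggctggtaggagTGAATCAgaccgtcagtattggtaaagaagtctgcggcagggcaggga
Stat4, chr1:52007990-52008239, plus strand: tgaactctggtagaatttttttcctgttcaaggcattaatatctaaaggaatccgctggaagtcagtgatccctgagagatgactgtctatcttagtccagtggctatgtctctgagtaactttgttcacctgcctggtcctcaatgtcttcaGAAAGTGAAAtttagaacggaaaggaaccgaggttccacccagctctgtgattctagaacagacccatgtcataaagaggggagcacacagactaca
Bcl6, chr16:23981284-23981533, minus strand: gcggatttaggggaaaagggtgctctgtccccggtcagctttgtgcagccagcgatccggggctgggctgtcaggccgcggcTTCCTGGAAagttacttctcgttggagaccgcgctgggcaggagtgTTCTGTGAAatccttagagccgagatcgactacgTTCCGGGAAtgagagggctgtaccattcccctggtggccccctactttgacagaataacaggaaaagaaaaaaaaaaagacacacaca
The Prdm1 match, TGAATCA, with A as the free middle base, lay 48 to 42 bases before an annotated start inside the gene. Whether BATF-JUN dimers bind this form was not tested. The Stat4 match, GAAAGTGAAA, lay 97 to 88 bases before the second of its annotated starts. The Bcl6 window held 3 STAT matches, of which TTCCGGGAA lay nearest to the start, 88 to 80 bases before it, and the window of the other Bcl6 start held 1, TTCTCAGAA. A match describes these letters and is not evidence that a factor is bound there. No match was found in the windows of Irf4, Batf, Tbx21, Rora and Stat3.

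Presence of a gene in a library means a level of at least 10 RPM. Maf was the only one of the 9 present in all 6 libraries, Stat3 was present in 5, Rora in 4, Irf4, Batf and Stat4 in 3 each, Prdm1 in 1, and Tbx21 and Bcl6 in none. Of all genes, 7909 were present in at least 1 library, of which 8.9% were present in all 6 and 32.1% in 1 alone. Of the 54 values of the 9 genes, 25 were at 10 RPM or more, 27 were under 3 RPM and 2 lay between. None of the 9 was present in all 3 libraries of a genotype and absent from all 3 of the other, a pattern that 1.61% of the 7909 genes had. The libraries of WT replicates 1 and 2 held 6 of the 9 genes each, MOG KO replicate 1 held 5, WT replicate 3 and MOG KO replicate 2 held 3 each, and MOG KO replicate 3 held 2. Within a genotype, 2 libraries disagreed on the presence of 1 to 5 of the 9 genes (median 3 over 6 pairs), and between genotypes likewise on 1 to 5 (median 3 over 9 pairs). In such bulk samples fewer cells that use a gene, less RNA per cell and RNA missed in library making cannot be told apart.

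**Figure D2:**
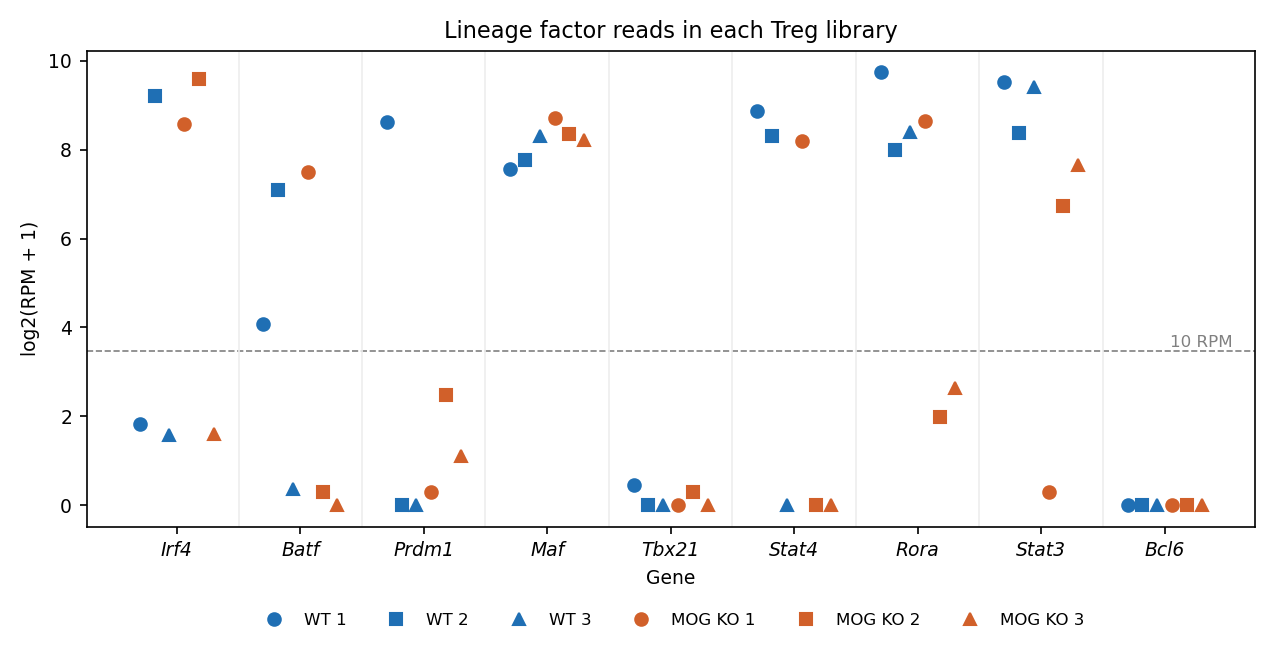
Level of each of the 9 genes in each library as log2(RPM + 1), WT in blue and MOG KO in orange, with the dashed line at 10 RPM. Maf is the one gene above the line in all 6 libraries, and Irf4, Batf, Stat4 and Rora are high in some libraries and near 0 in others of the same genotype.

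For the comparison of genotypes, edgeR kept 6 of the 9 genes, Irf4, Batf, Maf, Stat4, Rora and Stat3. None of the 6 passed an adjusted p of 0.05, and the share of all 4088 genes tested that passed was 0%. Before adjustment 209 of the 4088 genes (5.11%) had a p under 0.05, and 0 of the 6 did. The median log2 fold change of the 6 was -0.63, with 3 above and 3 below 0, against a median of 0.063 over all genes tested, of which 52.1% were above 0. Fold changes are given as log2 of MOG KO over WT, with an approximate standard error (SE) and a 95% interval. Both come from the edgeR fit, which draws the spread of each gene toward that of other genes. They therefore do not measure the spread of that gene alone.

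Irf4 (Entrez 16364, GRCm38 chromosome 13, 30749226 to 30766976) encodes the factor that turns the strength of the receptor signal into effector Treg differentiation. It had 2.58, 587 and 1.98 RPM in WT replicates 1, 2 and 3, and 382, 768 and 2.03 RPM in MOG KO replicates 1, 2 and 3, the order kept for every gene below. It was thus high in 1 WT and 2 MOG KO libraries and had 7 counts in each of the other 3, so the groups overlapped. The log2 fold change was 0.99 ± 2.44 (SE, n = 3 per group, 95% interval -4.71 to 6.68, adjusted p = 1 in edgeR). Without WT replicate 2 it was 7.33, without MOG KO replicate 2 -0.028, and without WT replicate 3 0.44. In MOG KO replicate 1, where Irf4 had 382 RPM, the B cell markers summed to 0 RPM, while in WT replicate 2 and MOG KO replicate 2 they summed to 207 and 130 RPM, nearly all of it Cd79b. The part of B cells in the Irf4 values of those 2 libraries was not tested.

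Batf (53314, chromosome 12, 85686669 to 85709087), the AP-1 partner of IRF4, had 15.8, 136 and 0.283 RPM in the WT libraries, against 181, 0.229 and 0 RPM in the knockout libraries. WT replicate 2 and MOG KO replicate 1 were high, WT replicate 1 was between, and the other 3 held at most 1 count each. The log2 fold change was 0.21 ± 2.98 (95% interval -6.74 to 7.16, adjusted p = 1 in edgeR), and its sign turned in 5 of the other settings tried, to -8.28 without MOG KO replicate 1 and to -0.29 without WT replicate 3. Irf4 and Batf, which work as a complex, were both present in WT replicate 2 and MOG KO replicate 1. Irf4 was present without Batf in MOG KO replicate 2, and Batf without Irf4 in WT replicate 1. As a description over 6 libraries that share depth and library make-up across all genes, their log2(RPM + 1) values had a Pearson r of 0.51.

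Prdm1 (12142, chromosome 10, 44437177 to 44528501) encodes BLIMP-1, the repressor that marks the most differentiated effector Tregs. It had 390, 0 and 0 RPM in the WT libraries, against 0.231, 4.59 and 1.16 RPM in the knockout libraries. WT replicate 1 held 1061 of its 1086 counts, or 97.7%, and the gene was not kept for the test. BLIMP-1 is also the plasma cell factor: in WT replicate 1 the plasma cell gene Igj had 10.3 RPM and Xbp1 216 RPM, while Sdc1, Mzb1 and Tnfrsf17 had 0 counts. Xbp1 was also high in WT replicate 2 and MOG KO replicate 2, at 358 and 292 RPM, where Prdm1 was 0 and 4.59 RPM. The part of plasma cells in the Prdm1 value was not tested.

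Maf (17132, chromosome 8, 115682942 to 115707794) encodes c-Maf, an inducer of interleukin 10 and of the intestinal and follicular types of Treg. It had 189, 218 and 314 RPM in the WT libraries, against 421, 324 and 296 RPM in the knockout libraries. All 6 values lay within 2.22-fold of each other, and the highest WT value exceeded the lowest MOG KO value, so the groups overlapped. Mean levels were 241 ± 65.5 RPM for WT against 347 ± 65.4 RPM for MOG KO (SD, n = 3 each). The log2 fold change was 0.44 ± 1.19 (95% interval -2.32 to 3.2, adjusted p = 1 in edgeR). It ran from 0.3 to 0.8 when single libraries were left out, the highest value being that without WT replicate 3. Of the genes tested, 8.59% had an SE no larger than that of Maf. This SE depended on the fit: it was 0.67 in limma-voom and 2.1 in edgeR without a filter on low counts. Il10, a known target, had 1 count in all, in MOG KO replicate 2. The gene shares 440 exonic bases with Gm15655 on the opposite strand.

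Of the type 1 pair, Tbx21 (57765, chromosome 11, 97098071 to 97115331), the gene of T-bet, had 1 count in WT replicate 1, 1 in MOG KO replicate 2 and 0 in the other 4 libraries. Both groups were thus at or under the limit that a count of 0 allows, and no difference was detectable at this depth. Stat4 (20849, chromosome 1, 51987148 to 52107189), which carries the interleukin 12 signal, had 468, 314 and 0 RPM in the WT libraries, against 294, 0 and 0 RPM in the knockout libraries. It was either well read or absent: WT replicates 1 and 2 and MOG KO replicate 1 held 1271 to 1404 counts, and the other 3 libraries 0. The log2 fold change was -1.47 ± 3.34 (95% interval -9.25 to 6.31, adjusted p = 1 in edgeR), -1.97 without WT replicate 3 and -12.85 without MOG KO replicate 1. Of the genes tested, 98.7% had an SE no larger than that of Stat4. Stat4 and Batf were present in the same 3 libraries, a combination shared by 132 genes of the table. Stat4 shares 1033 exonic bases with Gm28177 on the same strand, so reads there may be counted to either.

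Of the type 17 pair, Rora (19883, chromosome 9, 68653786 to 69388246), a nuclear receptor also used by tissue Tregs, had 854, 252 and 338 RPM in the WT libraries, against 399, 2.98 and 5.22 RPM in the knockout libraries. All 3 WT libraries and MOG KO replicate 1 were high, and MOG KO replicates 2 and 3 held 13 and 18 counts, low but not 0. The high MOG KO value lay between the WT values, so the groups overlapped. The log2 fold change was -1.94 ± 1.94 (95% interval -6.45 to 2.57, adjusted p = 1 in edgeR), -2.01 without WT replicate 3 and -6.88 without MOG KO replicate 1. This pattern of presence, all WT libraries and 1 MOG KO library, was shared by 89 genes.

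Stat3 (20848, chromosome 11, 100885098 to 100939540), which carries interleukin 6 and interleukin 10 signals, had 741, 332 and 680 RPM in the WT libraries, against 0.231, 105 and 201 RPM in the knockout libraries. Every WT value exceeded every MOG KO value, and MOG KO replicate 1 held a single count. It was the 1 gene of the 6 whose groups did not overlap. Across the genes tested 4.57% had all MOG KO values below all WT values, and 10.5% did not overlap in either direction. Mean levels were 584 ± 220 RPM for WT against 102 ± 101 RPM for MOG KO (SD, n = 3 each). The log2 fold change was -2.56 ± 1.79 (95% interval -6.74 to 1.62, adjusted p = 1 in edgeR, unadjusted p = 0.193), so the difference did not pass the test. It was -1.98 without MOG KO replicate 1, where the gene was nearly absent, -2.38 without WT replicate 3, and down to -3.52 without MOG KO replicate 3. Stat3 was near 0 in MOG KO replicate 1, the library with the highest Maf and Batf values. Stat3 shares 72 exonic bases with Stat5a on the opposite strand.

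Bcl6 (12053, chromosome 16, 23965052 to 23988852), the factor of follicular helper and follicular regulatory T cells, had 0 counts in all 6 libraries. The limit that this sets lies between 0.671 and 1.1 RPM. Of all genes 48.1% had 0 counts throughout. Its opponent Prdm1 was also under 10 RPM in 5 of the 6 libraries.

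**Figure D3:**
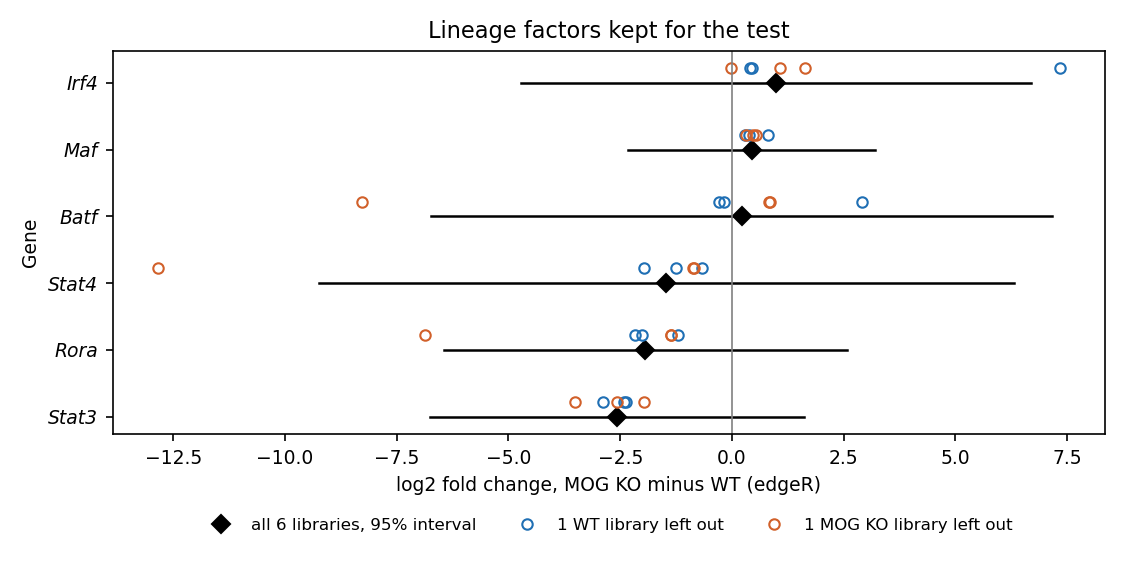
Log2 fold change of the 6 genes kept for the test, MOG KO minus WT, from edgeR. Diamonds and bars give the value and 95% interval with all 6 libraries, and open circles the value with 1 library left out. Every interval spans 0, and Stat4, Batf, Rora and Irf4 move furthest when a single library is left out.

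Between genes, levels can be set side by side only per length. In RPM per kilobase of exons (GENCODE M21 models, which may not be those of the authors), the median over the 6 libraries was 39.3 for Irf4, 38 for Stat4, 37.1 for Maf, 28 for Stat3, 22.6 for Rora, 5.73 for Batf, 0.125 for Prdm1 and 0 for Tbx21 and Bcl6. The spread over libraries was wider than the steps between neighbours in this order from Irf4 to Batf, since Irf4 ran from 0.405 to 157, Stat4 from 0 to 121 and Maf from 23 to 51.1. For Irf4, Stat4 and Batf, each present in 3 libraries, the median falls between a low and a higher value and is the level of no library. The order also depends on the summary: by the mean, Batf (39.5) stood above Stat3 (36) and Maf (35.7), below Irf4 (59.3) and Stat4 (46.3). Where Batf was highest, in MOG KO replicate 1, it had 129 RPM per kilobase against 78 for Irf4 and 51.1 for Maf. In that library the short Batf transcript was therefore the most strongly read of the 9, although in plain RPM it was below Irf4, Maf, Stat4 and Rora.

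The genes with the most similar pattern, by Pearson r of log2(RPM + 1) over the 6 libraries among 3946 other genes tested (predicted genes and clone names left out), were Slc26a11, an anion transporter gene, for Irf4 (r = 0.9987), Hiat1 for Batf (0.9985), Wnk1, a kinase gene of ion transport, for Maf (0.9888), Manba, a lysosomal mannosidase gene, for Stat4 (0.9997), Psmd12, a proteasome subunit gene, for Rora (0.9933) and Prc1, a gene of the mitotic spindle, for Stat3 (0.9889). As a description, 67 genes had an r over 0.95 with Irf4, 92 with Stat4 and 5 with Maf. Among the 15 pairs of the 6 genes themselves, r ran from -0.76 for Maf and Stat3 to 0.92 for Batf and Stat4. All such values come from the same 6 libraries, in which genes are often either present or near 0.

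The other genes of each programme were taken from 6 lists with 77 different genes, of which 65 had at least 1 count and 47 were tested. None passed an adjusted p of 0.05 in edgeR, and 24 of the 47 were above 0. In DESeq2, which gave an adjusted p to 44 genes of the lists, 3 passed, where the share over all genes with an adjusted p was 15%, and 0 of the 6 lineage factors with an adjusted p passed.

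Of 10 partners of BATF and IRF4, 4 were present in all 6 libraries, Junb, Jund, Ikzf1 and Ets1, and the AP-1 gene Batf3 and the IRF gene Irf8 were at 0.231 RPM or less in all and present in 2 libraries, respectively. Of 6 tested, 0 passed, 4 were above 0 and the median was 0.11. With DESeq2 size factors, which moved the median of all genes by -0.1, 2 of the 6 were above 0 and the median was -0.19, the lowest of the settings tried. The highest was 0.83 in limma-voom, and leaving out single libraries gave -0.18 without WT replicate 1 to 0.47 without MOG KO replicate 1. It was 0.32 over 7 genes without WT replicate 3. Jun, the AP-1 subunit that pairs with BATF, had 36.8, 32.2 and 1.13 RPM in the WT libraries, against 553, 21.3 and 405 RPM in the knockout libraries (log2 fold change 3.79 ± 2.17, 95% interval -1.27 to 8.85, adjusted p = 1 in edgeR). Jun and Batf were both present in WT replicates 1 and 2 and MOG KO replicate 1. Ets1, a factor of T cell enhancers, had 1520, 1109 and 1699 RPM in the WT libraries, against 1006, 847 and 1379 RPM in the knockout libraries (-0.5 ± 0.33, 95% interval -1.27 to 0.28, adjusted p = 1 in edgeR).

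Of 16 effector Treg target genes, 4 were present in all 6 libraries, Icos, Tigit, Fgl2 and Tnfrsf18. Of 12 tested, 0 passed, 9 were above 0 and the median was 0.54. It stayed above 0 in all settings tried, between 0.087 and 0.73. Icos, a costimulatory receptor, was between 822 and 1018 RPM in all 6 libraries, where Irf4 and Batf were high in some and near 0 in others. The chemokine receptor gene Cxcr6 was read at 1.84, 164 and 1.7 RPM in the WT libraries, against 413, 338 and 468 RPM in the knockout libraries (2.89 ± 2.14, adjusted p = 1 in edgeR). Gzmb, the gene of granzyme B, had 234, 230 and 1.98 RPM in the WT libraries, against 456, 449 and 693 RPM in the knockout libraries (1.79 ± 1.54, adjusted p = 1 in edgeR). In both genes every MOG KO value exceeded every WT value, as was so for 5.97% of the genes tested. Without WT replicate 3, where both were low, the list median was 0.26.

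Of 14 genes of the type 1 programme, 6 were present in all libraries, among them Cxcr3, a chemokine receptor that T-bet is known to induce, at 407, 198 and 20.7 RPM in the WT libraries, against 290, 416 and 389 RPM in the knockout libraries. Ifng, the cytokine gene of type 1 helper cells, and Eomes, the relative of T-bet, had 0 counts in all 6 libraries. Of 8 tested, 0 passed, 5 were above 0 and the median was 0.1. Over the other settings the median ran from -0.24 in DESeq2 to 0.4 without WT replicate 3, where 7 of the 8 were above 0. With DESeq2 size factors 3 of the 8 were above 0. The DESeq2 median was over 12 genes, not the same 8, and the median of all genes was -0.26 there. Il27ra, the interleukin 27 receptor, had 243, 553 and 361 RPM in the WT libraries, against 570, 720 and 833 RPM in the knockout libraries (0.83 ± 0.61, 95% interval -0.57 to 2.23, adjusted p = 1 in edgeR). Its groups did not overlap, as was so with MOG KO higher for 5.97% of the genes tested. Il18r1, the interleukin 18 receptor, had 259, 135 and 0.283 RPM in the WT libraries, against 3.24, 40.8 and 0.58 RPM in the knockout libraries (-3.12 ± 2.64, 95% interval -9.28 to 3.03, adjusted p = 1 in edgeR).

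Of 8 type 2 genes only Gata3, their master factor and a Treg gene in its own right, was present in all libraries, at 319, 337 and 564 RPM in the WT libraries, against 245, 340 and 495 RPM in the knockout libraries (-0.25 ± 0.9, 95% interval -2.32 to 1.82, adjusted p = 1 in edgeR). Il4, Il5 and Il13 had 0 counts throughout. Of 5 tested, 0 passed and 3 were above 0, with a median of 0.069. This ran from -0.56 without MOG KO replicate 3 to 0.21 with the replicate numbers as a block, and was 0.16 without WT replicate 3. Dusp2, a phosphatase of activated T cells, had 120, 0.447 and 467 RPM in the WT libraries, against 187, 31.9 and 2.32 RPM in the knockout libraries, and its log2 fold change was -1.62 ± 2.47 (adjusted p = 1 in edgeR).

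The type 17 cytokine genes Il17a, Il17f and Il22 and the receptor gene Il23r had 0 counts in all 6 libraries. Of 8 type 17 genes tested, 0 passed and all 8 were below 0, with a median of -0.33, where 1960 of all 4088 genes tested were below 0. Among the 8, Socs3 and Jak1 were close to 0, at -0.037 ± 1.21 and -0.053 ± 0.38. In limma-voom 2 of the 8 were above 0 (median -0.68), and in DESeq2 3 of 10 were (median -0.3). With DESeq2 size factors 1 of the 8 was above 0, and without WT replicate 1, where the list summed to 4338 RPM against 1689 to 3016 RPM elsewhere, 5 of 9 were above 0 with a median of 0.056. Without MOG KO replicate 3 the median was -2.1, with 8 of 9 below 0, and with the replicate numbers as a block it was -1.61, with 6 of 8 below 0. Leaving out WT replicate 3 gave -0.92, with 7 of 10 below 0. The receptor genes upstream of STAT3 were the named members: Il6st had 698, 635 and 1.42 RPM in the WT libraries, against 15.5, 1.38 and 432 RPM in the knockout libraries (-1.53 ± 2.34, 95% interval -6.99 to 3.93, adjusted p = 1 in edgeR), and Il6ra 142, 135 and 27.8 RPM and 0.231, 45.4 and 79.1 RPM (-1.27 ± 2.15). Il6ra and Stat3 were present in the same 5 libraries, a combination shared by 101 genes of the table, and were both at 1 count in MOG KO replicate 1. Jak1, the kinase next to these receptors, and Socs3, the feedback inhibitor that STAT3 is known to induce, were present in all 6 libraries, with Socs3 at 147, 195 and 547 RPM in the WT libraries, against 408, 238 and 303 RPM in the knockout libraries. Socs3 was thus read at 408 RPM in the library in which Stat3 had 1 count.

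Of 15 genes of the follicular programme of BCL6, Ncor1 was present in all libraries and Il21 and Ascl2 had 0 counts. Of 8 tested, 0 passed in edgeR, 3 were above 0 and the median was -0.55. Over the other settings it ran from -1.63 without a filter on low counts to 0.25 without WT replicate 2. Leaving out WT replicate 3 gave -0.79. The value of -1.63 was over 13 genes, not the same 8, and the median of all genes moved by -0.24 in that setting. Bcor, a BCL6 corepressor, had 2.94, 0.447 and 0.567 RPM in the WT libraries, against 898, 33.7 and 416 RPM in the knockout libraries (log2 fold change 8.33 ± 2.41, 95% interval 2.73 to 13.92, unadjusted p = 0.00922, adjusted p = 0.602 in edgeR). Tcf7, the gene of TCF-1, which sustains BCL6 in follicular cells, had 285, 333 and 93.8 RPM in the WT libraries, against 0.693, 1.15 and 1.74 RPM in the knockout libraries (-7.6 ± 2.28, unadjusted p = 0.0104, adjusted p = 0.602 in edgeR). The groups of neither gene overlapped: MOG KO was higher for Bcor, as for 5.97% of the genes tested, and lower for Tcf7, as for 4.57%. Both passed in DESeq2 (adjusted p = 0.00316 for Bcor and 0.00348 for Tcf7), in which 15% of all genes with an adjusted p passed. The third list gene to pass there, Btla, an inhibitory receptor of follicular cells named here after its values were seen, had 0.368, 391 and 367 RPM in the WT libraries, against 0, 0.229 and 0 RPM in the knockout libraries (adjusted p = 0.00223 in DESeq2) and was not kept for the test in edgeR. Cxcr5, the follicle-homing receptor, was present in WT replicate 2 and MOG KO replicate 3, at 154 and 50.7 RPM.

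**Figure D4:**
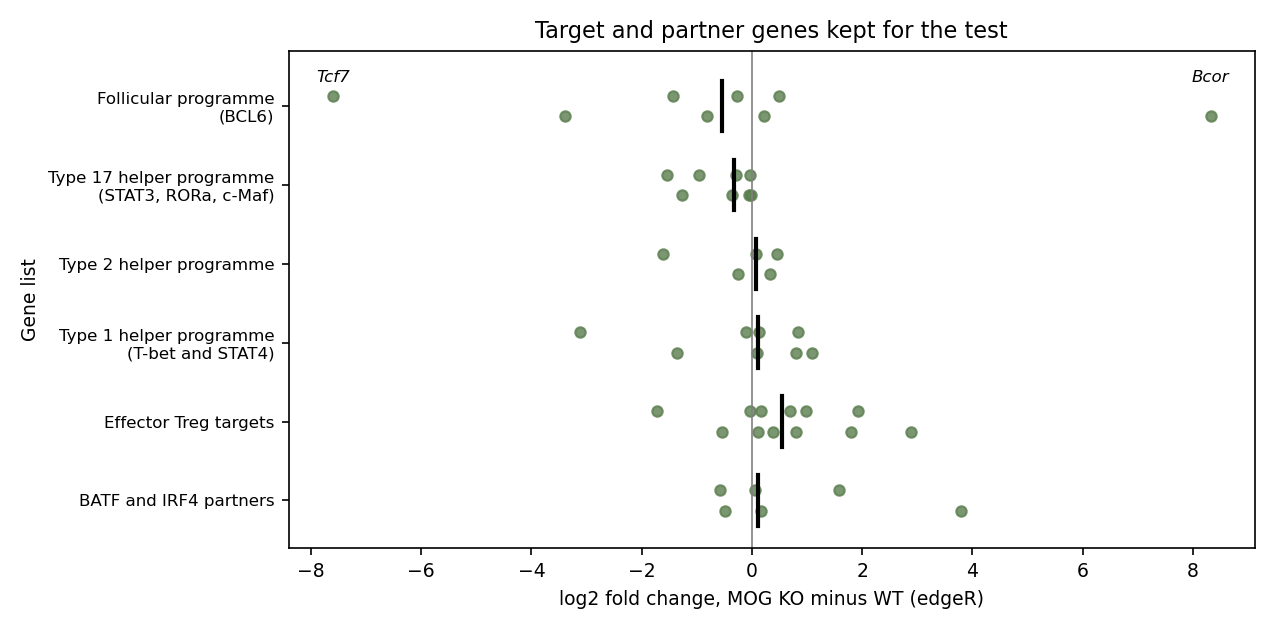
Log2 fold changes, MOG KO minus WT in edgeR, of the tested genes of 6 lists, with a point per gene and a bar at each median. The medians lie between -0.55 and 0.54, and Tcf7 and Bcor lie furthest out. All 8 tested type 17 genes are below 0 with all 6 libraries and the scaling by trimmed mean of M-values, some of them only just. With DESeq2 size factors 7 of 8 were below 0, and in limma-voom 6 of 8.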

How the data were processed

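2 deposited tables were used for 6 libraries, 3 per genotype. The authors deposited an integer exon read count per gene, without scaling, and the same data as RPM, which rescaling the counts by their column totals gave within 1e-06. Per the submitters' processing notes STAR 2.3.1, R 3.2.2 and build mm10 were used. Sources used here do not give the counting function, gene models or strand setting. Per the labels' protocols, SMARTer cDNA was made into NexteraXT libraries sequenced as 100-base single reads; no molecular identifiers are mentioned.

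Counts were fitted in edgeR 4.0.16 (R 4.3.3) over all genes kept by filterByExpr (4088), with TMM scaling (trimmed mean of M-values), robust quasi-likelihood dispersions, genotype alone as the model and Benjamini-Hochberg adjustment at 0.05. The SE was derived from the F statistic (size of the log2 fold change over root F). Alternatives were DESeq2 size factors, no filter, at least 50 counts in 3 libraries, DESeq2 1.42.0, limma-voom (limma 3.58.1), the replicate block, each library left out, and presence at 3 or 30 RPM. The fitting steps were tested on simulated data.

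All 9 genes are named. Of each list the 2 of smallest unadjusted p are named where none passed, and for each tested factor the gene most like it by Pearson r; other genes of the lists were named after their values were seen. The genes and lists were chosen with earlier results of these data known. Coordinates and exon lengths are those of GENCODE M21 (GRCm38). 1 gene of the type 17 list is not reported here. P-values measure the spread between these libraries only.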

Additional observations from a re-analysis of the deposited data

How the results depend on the processing

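0 genes passed in edgeR with all 6 libraries, with DESeq2 size factors, without a filter, with at least 50 counts in 3 libraries, with the replicate block and in limma-voom, and 738 in DESeq2 (270 higher and 468 lower in MOG KO). Leaving out single libraries gave 0 to 0 genes. Of the 6 lineage factors 0 passed in any setting (lowest adjusted p 0.567, for Stat3). Batf was -2.39 in limma-voom. No pairing by replicate number was seen: deviations of same-numbered libraries correlated at -0.0213, -0.000626 and -0.018, and those of other pairs at -0.0175 to 0.0386. With genes often either present or near 0, a shared batch could go unseen, so this cannot settle pairing. With the replicate block Batf was -3.22 and no call changed. When single libraries were left out, Batf ran from -8.28 to 2.91 (-0.17 without WT replicate 1 and -0.29 without WT replicate 3), Irf4 from -0.028 (without MOG KO replicate 2) to 7.33, and Maf, Stat4, Rora and Stat3 kept their sign. The count of the 9 genes present in all 6 libraries was 1 at 3, 10 and 30 RPM and 1 to 2 when single libraries were left out, 2 without MOG KO replicate 1, where Stat3 joined Maf. The cause of these shifts was not tested. Prdm1, Tbx21 and Bcl6 were too rarely read for a test, and Batf was not kept under the filter of 50 counts. With edgeR intervals several log2 units wide, a change of the lineage factors smaller than that was not detectable in that fit of 3 libraries per genotype.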
